A study of Mus musculus with 18 samples.

Results

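Genes of the cell cortex and plasma membrane were followed in mouse embryonic stem cells (mESCs): the ezrin-radixin-moesin (ERM) genes Ezr, Rdx and Msn, the scaffold gene Slc9a3r1, the channel gene Piezo1, and the caveola genes Cav1, Cav2 and Cavin1 (named Ptrf in older annotation). They were chosen by symbol, with earlier results of these data known, and all 8 were found once each among the 46078 genes of the count table. The cells were wild-type E14 mESCs of a 129 background, an established line, grown for 24 h in serum + LIF on StemBond hydrogels carrying fibronectin. StemBond gels are polyacrylamide gels that hold the co-factor AHA (6-acrylamidohexanoic acid), and more AHA means stronger tethering of the extracellular matrix (ECM) to the gel, up to a plateau. The authors found that the force to part an antibody-coated probe from gel-bound fibronectin levelled off at high AHA. They proposed that the tethering points were saturated there. Every group shared the cells, medium, coating and time, and differed in substrate stiffness (about 750 Pa for soft and about 160 kPa for stiff gels) and in AHA (low, 16 mM; mid, 48 mM; high, 80 mM). Each of the 6 groups had 3 libraries. The question put by this design is which transcripts follow stiffness and which follow ECM tethering.

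ERM proteins bind the plasma membrane at one end and cortical actin at the other, and so hold the membrane to the cortex. In mESCs this attachment is known to keep membrane tension high in the naive state, and tension falls as cells leave that state. Caveolae are small flask-shaped pits coated by caveolins and cavins, which flatten when the membrane is stretched, and PIEZO1 is a cation channel that opens under membrane tension.

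Gene counts per library ranged from 5850621 to 9290261. One library, replicate 1 on soft gels with high AHA, held 1.37% of counts in the ERCC spike-in RNAs, against 0.607 to 0.725% in the other 17, and was left out of the fits, which leaves 8 soft and 9 stiff libraries. The results that rest on that choice are given with it as well. All 8 genes passed the filter on low counts, but Cav2 reached the level the filter asks for in only 7 soft and 7 stiff libraries. Of the embryonic stem cell markers, all 7 were measured and Pou5f1 (Oct4) led them at 545 CPM (CPM, the count scaled to library size by TMM).

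The genes lie on different chromosomes apart from 2 pairs. On GRCm38, Ezr occupies chr17:6738041-6782784 on the minus strand, Rdx chr9:52047173-52088735 on the plus strand and Msn chrX:96096042-96168552 on the plus strand. Slc9a3r1 (chr11:115163341-115181181, plus) and Cavin1 (chr11:100956733-100970887, minus) share chromosome 11, and Piezo1 lies at chr8:122481698-122551329 on the minus strand. Cav2 (chr6:17281185-17289115) and Cav1 (chr6:17306335-17341452) are neighbours on the plus strand, with 17220 bp between the end of the first and the start of the second. Exons of Ctu2 on the opposite strand cover 24.6% of the exonic bases of Piezo1, and since it is not stated whether counting used strand, the Piezo1 count is uncertain to that extent. For Msn this overlap is 2.15% (Gm24718), for Ezr 0.122% (Sytl3), and for the other 5 genes there is none. Stretches of 50 bases, read on either strand, were shared with another gene's transcripts at 22.7% of positions in Piezo1 (Ctu2), 1.39% in Msn (Gm24718), 0.800% in Slc9a3r1 (Gm37103) and 0.185% in Ezr (Gm5739), and at none in the other 4 genes.

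Msn and Cavin1 were the genes whose soft and stiff libraries did not overlap, so their promoters are shown, as the 250 bases before the RefSeq start on GRCm38.p6, read on the strand of the gene. Capitals mark CATTCC, the core letters read by TEAD factors, the DNA-binding partners of YAP and TAZ. The Msn stretch is chrX:96095795-96096044 on the plus strand, and the Cavin1 stretch is chr11:100970618-100970867 on the minus strand, with the motif starting 247 bases before the start. The gene coordinates given above place the 5' end of Cavin1 at 100970887, upstream of this RefSeq start. By those coordinates the whole Cavin1 stretch, motif included, lies within the gene and not before it.
Msn: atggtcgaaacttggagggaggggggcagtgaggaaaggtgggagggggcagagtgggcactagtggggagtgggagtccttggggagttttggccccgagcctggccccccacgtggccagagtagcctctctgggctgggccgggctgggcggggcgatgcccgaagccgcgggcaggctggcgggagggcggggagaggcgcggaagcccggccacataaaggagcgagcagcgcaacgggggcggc
Cavin1: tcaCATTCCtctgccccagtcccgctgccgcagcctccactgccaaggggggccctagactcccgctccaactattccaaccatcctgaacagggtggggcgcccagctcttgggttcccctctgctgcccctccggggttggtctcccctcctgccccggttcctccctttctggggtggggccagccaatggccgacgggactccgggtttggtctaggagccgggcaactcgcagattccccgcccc

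RefSeq listed 11 promoters for the 8 genes, each of 300 bases (250 before the start and 50 after it). CATTCC, searched on both strands, was in 2 of these 11, both of them overlapping entries of Cavin1, against 14.7% of all 32851 promoters of that length. The CArG box, the site of the serum response factor SRF, was in 0 of 11, against 1.63% of all. These matches describe letters only, and the motif's presence in Cavin1 and absence from this window of Msn were not tested against anything.

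Between soft and stiff substrates, 3 of the 8 genes were lower on soft and 0 were higher, in the average of the 3 differences at equal AHA (edgeR, adjusted p under 0.05). The called genes were Msn, Cavin1 and Piezo1, and across all 13438 protein-coding genes tested 8.59% were called in this comparison, 4.82% as lower and 3.77% as higher on soft. Since the 8 genes were chosen with earlier results known, their count beside that share is a description. The difference was negative in 7 of the 8 genes, with a median of -0.083 on the log2 scale, where the median of all genes tested was 0.0011. Soft and stiff libraries did not overlap in 2 of the 8. Of all genes tested, 1.27% did not overlap in either direction, and 0.871% of all genes tested were apart as lower on soft. These are bulk samples, so fewer cells of one kind and less RNA per cell cannot be told apart. The labels do not say that the 3 samples of a group were separate cultures, so the p-values measure the spread between these samples.

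**Figure D1:**
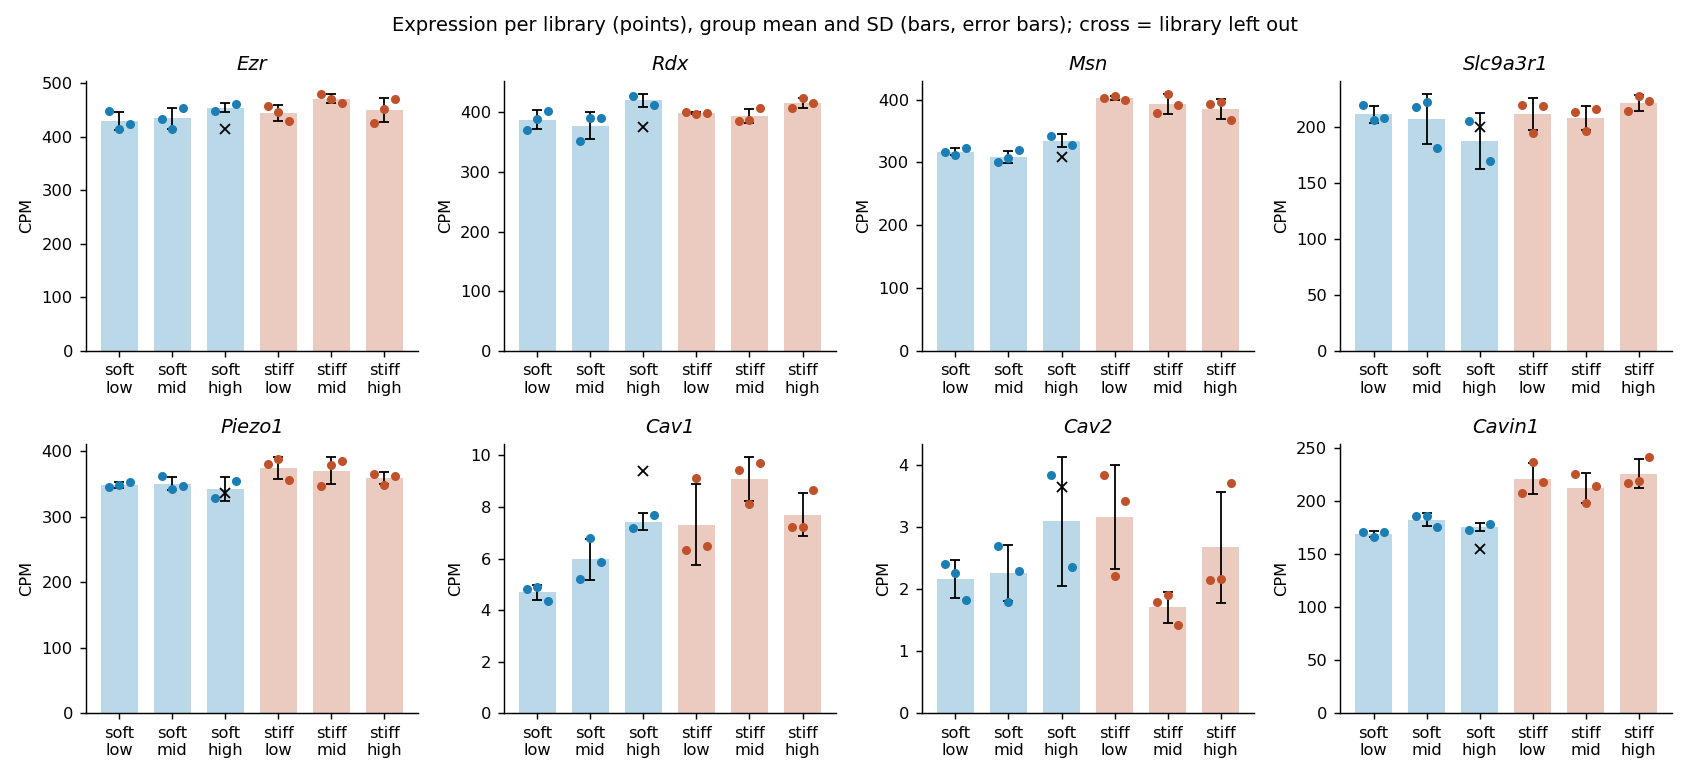
Expression of the 8 genes in CPM (vertical axes, each from 0) in each library of the 6 groups, soft in blue and stiff in red; bars are means, error bars SD, and a cross marks the library left out. Msn (300 to 342 against 367 to 409 CPM) and Cavin1 (166 to 186 against 198 to 242 CPM) separate soft from stiff, while the other 6 genes overlap.

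Among the ERM genes, Msn followed stiffness. Msn encodes moesin, the ERM protein best known from motile and blood cells. On soft gels it stood at 316, 312 and 323 CPM with low AHA, at 300, 307 and 319 CPM with mid AHA, and at 342 and 327 CPM with high AHA. On stiff gels it stood at 402, 405 and 400 CPM with low AHA, at 378, 409 and 392 CPM with mid AHA, and at 393, 396 and 367 CPM with high AHA. Every soft library was below every stiff one. The soft mean was 318 ± 12.9 CPM (SD, n = 8) and the stiff mean 394 ± 13.2 CPM (SD, n = 9), a log2 difference of -0.30 ± 0.027 (SE) or a fitted soft level of 0.813 times that on stiff (edgeR adjusted p = 2.89e-18). The library left out held 308 CPM, also below every stiff library.

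The other ERM genes did not pass the test. Ezr, which encodes ezrin, the main ERM protein of epithelia and of the early embryo, had a soft range of 415 to 461 CPM (median 440) and a stiff range of 426 to 480 CPM (median 458). The log2 difference was -0.051 ± 0.026 (edgeR adjusted p = 0.252), with a 95% interval from -0.10 to 0.00063. Rdx, which encodes radixin, spanned 352 to 428 CPM on soft (median 391) and 386 to 425 CPM on stiff (median 401), a log2 difference of -0.027 ± 0.026 (adjusted p = 0.627) with an interval from -0.080 to 0.025. The soft and stiff libraries of both genes overlapped widely, and both intervals lie nearer to 0 than that of Msn, from -0.35 to -0.24. Whether Msn differed from Ezr or Rdx in its stiffness difference was described through their shares, as follows, and not tested.

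Per kilobase of exon (RPKM), Ezr was the highest of the ERM genes at 136 ± 6.11 (SD, n = 17), then Rdx at 85.8 ± 3.99 and Msn at 56.6 ± 6.44. As a share of the summed RPKM of the 3 genes, Msn made up 18.8 ± 0.278% (SD, n = 8) on soft, from 18.4 to 19.1%, and 21.7 ± 0.876% (n = 9) on stiff, from 20.0 to 22.6%. The Msn shares of soft and stiff libraries did not overlap. Ezr made up 49.6 ± 1.35% on soft and 48.1 ± 1.37% on stiff, and Rdx 31.6 ± 1.17% and 30.2 ± 0.994%, with overlapping ranges for both. The summed level was 268 ± 10.2 RPKM on soft, from 255 to 282, and 287 ± 4.79 RPKM on stiff, from 279 to 291, which overlap. These shares depend on the length assigned to each gene. With the longest coding transcript in place of all exons, Msn made up 26.7% on soft and 30.3% on stiff, Rdx 28.8 and 27.2%, and Msn was then above Rdx in mean RPKM (93.2 against 90.8).

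**Figure D2:**
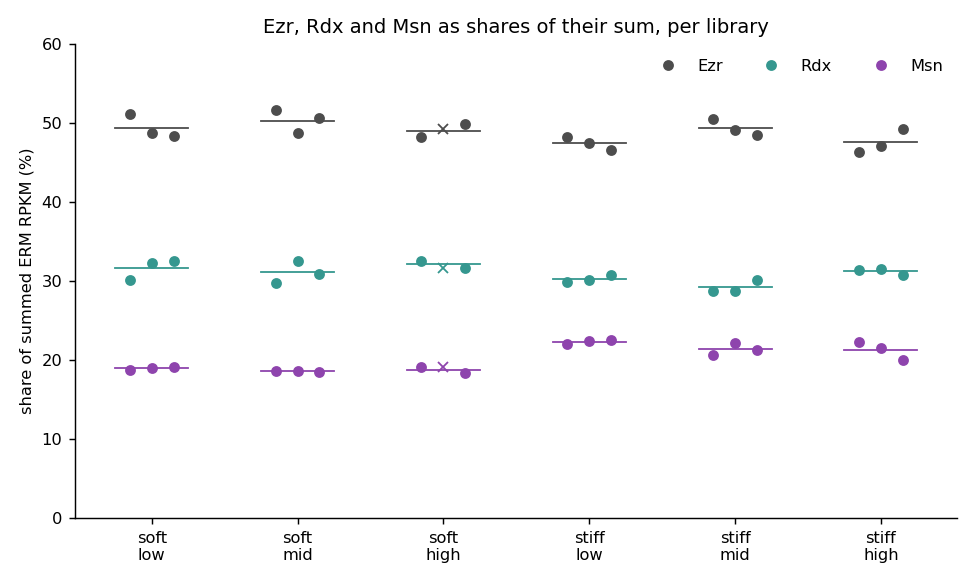
Share of Ezr, Rdx and Msn in their summed RPKM (vertical axis, %) in each library of the 6 groups (horizontal axis); points are libraries, short lines group means, and crosses the library left out. The Msn share lies at 18.4 to 19.1% on soft and 20.0 to 22.6% on stiff.

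Slc9a3r1 encodes NHERF1 (also called EBP50), a scaffold that joins activated ERM proteins to membrane proteins. It stood at 220, 206 and 208 CPM on soft gels with low AHA, at 218, 222 and 181 CPM with mid AHA, and at 205 and 170 CPM with high AHA. On stiff gels it ranged from 195 to 228 CPM, with a median of 216. The 2 lowest of all libraries were soft, but the other 6 soft libraries lay within the stiff range. The average log2 difference was -0.081 ± 0.037 (edgeR adjusted p = 0.191). Leaving out the soft, high AHA replicate 2 gave -0.13 with adjusted p = 0.00993 (0.00993 to 0.62 over all fits without a library), so 1 library decides whether Slc9a3r1 is called.

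Of the 3 caveola genes, Cavin1 passed the test for stiffness. Cavin1 encodes cavin-1, the coat protein without which caveolae do not form. It stood at 171, 166 and 171 CPM on soft gels with low AHA, at 186, 186 and 176 CPM with mid AHA, and at 173 and 178 CPM with high AHA. On stiff gels it stood at 208, 237 and 218 CPM with low AHA, at 226, 198 and 214 CPM with mid AHA, and at 217, 219 and 242 CPM with high AHA. Again every soft library was below every stiff one, the left-out library (155 CPM) included. The 8 soft libraries averaged 176 ± 7.28 CPM (SD) and the 9 stiff ones 220 ± 13.6 CPM, a log2 difference of -0.32 ± 0.033 (edgeR adjusted p = 1.19e-14), or a fitted soft level of 0.800 times that on stiff.

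Cav1 encodes caveolin-1, the principal membrane protein of caveolae outside muscle, and it was scarce here, with 24 to 49 counts per library. Cav1 stood at 4.81, 4.90 and 4.36 CPM on soft gels with low AHA, at 5.22, 6.80 and 5.88 CPM with mid AHA, and at 7.19 and 7.68 CPM with high AHA. On stiff gels it stood at 6.34, 9.12 and 6.47 CPM with low AHA, at 9.45, 8.12 and 9.72 CPM with mid AHA, and at 7.21, 7.23 and 8.66 CPM with high AHA. With low and mid AHA the soft libraries lay below the stiff ones, and with high AHA they overlapped. The average log2 difference was -0.43 ± 0.15 (edgeR adjusted p = 0.0635), larger in size than that of Cavin1 but not past the threshold.

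Cav2, which encodes caveolin-2, a partner that depends on caveolin-1 to reach the membrane, had 7 to 24 counts per library. It ranged from 1.79 to 3.83 CPM on soft (median 2.33) and from 1.42 to 3.84 CPM on stiff (median 2.17). The ranges nearly coincide. The log2 difference was 0.015 ± 0.26 (edgeR adjusted p = 0.982), and its 95% interval from -0.49 to 0.52 means that a difference as large as that of Cavin1 was not detectable at this depth.

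Piezo1 had soft levels from 329 to 362 CPM (median 347) and stiff levels from 347 to 388 CPM (median 366). Of the 8 soft libraries, 4 were below every stiff library, and the rest overlapped. The means were 348 ± 9.73 CPM (SD, n = 8) and 368 ± 15.6 CPM (SD, n = 9), a log2 difference of -0.085 ± 0.027 (edgeR adjusted p = 0.0289) or a fitted soft level of 0.942 times that on stiff. This call was fragile. It was lost on leaving out any 1 of 9 libraries: soft, low AHA replicates 1 and 2, soft, mid AHA replicate 2, soft, high AHA replicate 2, stiff, low AHA replicates 1 and 2, stiff, mid AHA replicates 2 and 3, and stiff, high AHA replicate 1. Piezo1 had adjusted p-values from 0.0133 to 0.149 over the fits without a library and log2 differences no nearer to 0 than -0.071. Ctu2, the gene on the other strand, stood at 61.3 ± 4.58 CPM on soft and 62.6 ± 4.60 CPM on stiff, a log2 difference of -0.043 ± 0.055 (adjusted p = 0.728).

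In order of RPKM over the 17 libraries, the genes ran from Ezr (136) through Slc9a3r1 (109), Rdx (85.8), Msn (56.6), Cavin1 (55.5) and Piezo1 (36.1) to Cav1 (2.04) and Cav2 (0.742). Most neighbours in this order did not overlap within a group. The exceptions were Msn and Cavin1, which overlapped in 4 of the 6 groups, and Slc9a3r1 and Rdx, which overlapped on soft gels with high AHA. This order and these overlaps rest on the union of exons, 6327 bp for Msn and 3587 bp for Cavin1. With the longest coding transcript (3842 and 3491 bp), Msn stood at 93.2 RPKM, above Rdx at 90.8. The ratio of Cavin1 to Cav1 RPKM had a median of 30.6 on soft, from 22.2 to 37.7, and of 26.8 on stiff, from 21.1 to 32.3.

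**Figure D3:**
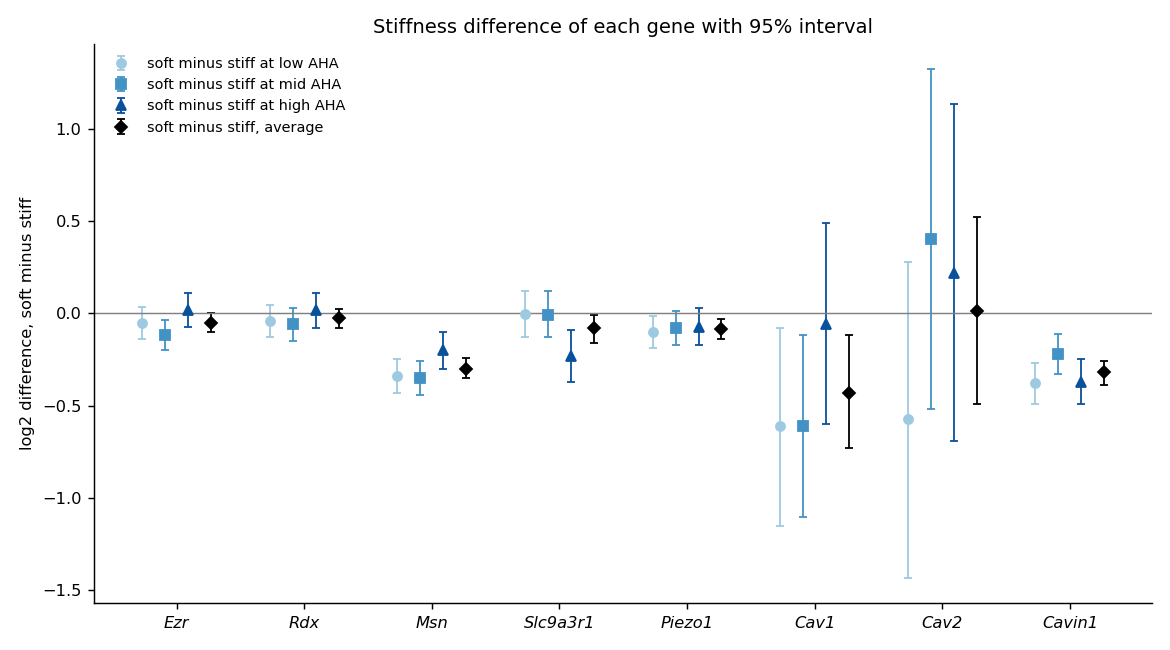
Log2 difference, soft minus stiff, of each gene (vertical axis) at low, mid and high AHA (blue circles, squares and triangles) and on average (black diamonds), with 95% intervals. Msn and Cavin1 lie below 0 at all 3 AHA concentrations, and the intervals of Cav1 and Cav2 are the widest.

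At each AHA concentration taken alone, the same 2 genes, Msn and Cavin1, were called lower on soft. At low AHA the background was 3.04% of genes called, 2.19% as lower, at mid AHA 2.86% and 1.85%, and at high AHA 0.841% and 0.432%. Msn differed by -0.34 ± 0.045 at low AHA (edgeR adjusted p = 1.35e-09), by -0.35 ± 0.045 at mid AHA (8.89e-10) and by -0.20 ± 0.050 at high AHA (0.0170) on the log2 scale. Cavin1 differed by -0.38 ± 0.056 at low AHA (adjusted p = 1.05e-07), by -0.22 ± 0.055 at mid AHA (0.00861) and by -0.37 ± 0.062 at high AHA (4.4e-05). The smallest difference of each gene rested on single libraries. For Msn at high AHA the call was lost without the soft replicate 3 (-0.17, adjusted p = 0.304), the stiff replicate 1 (-0.19, 0.0844) or the stiff replicate 2 (-0.18, 0.0846), and in a fit of those 2 groups alone (-0.20, 0.0582). Over all fits without a library, adjusted p for Msn ranged from 0.0103 to 0.304. For Cavin1 at mid AHA it was lost without the soft replicate 3 (-0.19, adjusted p = 0.0771) or the stiff replicate 1 (-0.17, 0.152), with a range from 0.00417 to 0.152.

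The other 6 genes were not called at any single AHA concentration. Cav1 had log2 differences of -0.61 ± 0.27 at low AHA, -0.61 ± 0.25 at mid AHA and -0.056 ± 0.27 at high AHA (edgeR adjusted p = 0.27, 0.213 and 0.979). Slc9a3r1 had differences of -0.0056 ± 0.062, -0.0071 ± 0.062 and -0.23 ± 0.070 in the same order (adjusted p = 0.989, 0.979 and 0.104). At high AHA the Slc9a3r1 difference was called without the soft, high AHA replicate 2 (-0.39, adjusted p = 0.00405) or the soft, mid AHA replicate 3 (-0.23, 0.0363), with a range from 0.00405 to 0.722 over all fits without a library. It was also called with all genes of at least 2 counts (-0.23, 0.0326) and on exchanging the left-out library for the soft, high AHA replicate 2 (-0.25, 0.0183), with a range from 0.0183 to 0.398 over the 8 alternatives of other kinds. Libraries of soft and stiff gels were apart for 4 of 8 genes at low AHA, against 18.2% of all genes, for 4 at mid AHA, against 18.0%, and for 3 at high AHA, against 24.7%, where the soft group had 2 libraries. In all of these the soft libraries were the lower ones, as in 9.60, 9.48 and 12.4% of all genes.

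Whether a stiffness difference changed with AHA was tested by the interaction, and 0 of the 8 genes were called (edgeR), beside 0.0298% of all genes. The lowest adjusted p was 0.723, for Slc9a3r1, which was also the 1 gene with an unadjusted p under 0.05 (0.0293), where 6.71% of all genes had one, and DESeq2 called 0 of 8. The differing values of Cav1 and Msn across AHA were therefore not shown to differ, with unadjusted p = 0.249 and 0.0540 in the edgeR interaction test.

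The comparisons of ECM tethering within one stiffness called 0 of the 8 genes in each of 6 contrasts by edgeR. DESeq2 also called 0, but in the contrasts of high AHA with low and with mid AHA on soft it gave an adjusted p to 6 of the 8 genes (not to Cav1 or Cav2). The background was low as well: 0.253% of genes for high against low AHA on soft, 0.00744% for the same on stiff, 0 for mid against low on both, 0.0670% for high against mid on soft and 0.00744% on stiff. At an unadjusted p under 0.05, high against low AHA on soft held 3 of the 8 genes (8.51% of all genes), high against mid on soft 2 (6.81%) and mid against low on stiff 1 (4.99%). The other 3 contrasts held 0 of the 8, beside 6.04% of all genes for high against low on stiff, 6.10% for mid against low on soft and 5.83% for high against mid on stiff. The lowest adjusted p-values (edgeR) were 0.383 for Rdx, high against mid on soft, and 0.45 for Rdx, high against low on soft.

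On soft gels, Cav1 had its lowest levels at low AHA and its highest at high AHA. The group means were 4.69 ± 0.294 CPM at low AHA (SD, n = 3), 5.97 ± 0.795 CPM at mid AHA (n = 3) and 7.43 ± 0.350 CPM at high AHA (n = 2), and the library left out held 9.38 CPM. High against low AHA gave a log2 difference of 0.66 ± 0.29 (edgeR adjusted p = 0.495), with a 95% interval from 0.079 to 1.24. On stiff gels the Cav1 means were 7.31 ± 1.57, 9.10 ± 0.857 and 7.70 ± 0.832 CPM (n = 3 each), with no such order. For high against low AHA on soft, Rdx had a log2 difference of 0.12 ± 0.049 and Slc9a3r1 of -0.17 ± 0.070, neither called (edgeR adjusted p = 0.45 and 0.46). Both values moved with single libraries of the soft, high AHA group. Rdx had 0.062 with all 18 libraries and 0.021 when replicate 1 was kept and replicate 2 removed, and Slc9a3r1 had -0.32 without replicate 2 and -0.040 without replicate 3.

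For high against low AHA on soft, 6 of the 8 genes had libraries that did not overlap, 5 of them higher at high AHA. Of all genes tested, 24.7% did not overlap in either direction, and 12.7% of all genes tested were apart as higher. The count of 6 rests on the library that was left out. With its CPM included, 2 of the 8 remained apart, Cav1 as higher and Slc9a3r1 as lower. In that case 14.2% of all genes tested did not overlap in either direction, and 7.29% of all genes tested were apart as higher. In the left-out library Ezr stood at 415 CPM, Rdx at 375 CPM, Msn at 308 CPM and Cavin1 at 155 CPM, so that Msn and Cavin1 were below all 3 low AHA libraries, Ezr at the lowest of them, and Rdx between the lowest and the middle one.

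Partners of these genes were read from 4 lists, also chosen with earlier results known, beside 8.59% of all genes called in the same average contrast (4.82% lower, 3.77% higher on soft). Of the ERM partners and regulators, 24 of 25 genes were tested, 5 were lower on soft, 2 were higher and 17 were not called, with a median log2 difference of -0.024. Rock2, a kinase that acts on ERM proteins and on actomyosin, was lower on soft (359 ± 11.6 against 400 ± 15.8 CPM, log2 difference -0.15 ± 0.027, edgeR adjusted p = 6.56e-06). Epb41l1, a FERM-domain protein of the band 4.1 family, was lower as well (-0.27 ± 0.050, 1.62e-05). So were the ERM-bound membrane proteins Podxl, an anti-adhesive sialomucin (-0.17 ± 0.043, 0.00387), and Cd44, the hyaluronan receptor (-0.31 ± 0.096, 0.0229).

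Nf2, which encodes merlin, the FERM-domain relative of the ERM proteins that acts upstream of YAP, moved the other way. It was higher on soft, with 315 ± 9.07 against 287 ± 7.25 CPM and a log2 difference of 0.13 ± 0.028 (edgeR adjusted p = 0.000245). Pip5k1b, a kinase that makes the lipid PIP2 to which ERM proteins bind, was higher on soft from a low level (5.58 ± 1.16 against 3.40 ± 1.05 CPM, log2 difference 0.70 ± 0.20, adjusted p = 0.0112). Slc9a3r2, the paralogue of Slc9a3r1, was the fifth lower gene (-0.26 ± 0.082, adjusted p = 0.0284). It ranked beyond the 6 genes the naming rule allows and is named here after its values were seen. At low, mid and high AHA, Slc9a3r2 differed by -0.35, 0.0044 and -0.43. Taken alone, the 3 AHA concentrations called Rock2 and Epb41l1 at 2 and Nf2 at 1. Podxl, Pip5k1b, Cd44 and Slc9a3r2 were called at 0 of them. The Pip5k1b call was lost without the soft, high AHA replicate 2 (0.51, adjusted p = 0.191, the highest of a range from 0.00277). That of Cd44 was lost without 1 of 4 libraries (soft, low AHA replicate 1, soft, high AHA replicate 2, stiff, mid AHA replicate 2 or stiff, high AHA replicate 3), with adjusted p from 0.0129 to 0.0886 over all such fits. That of Slc9a3r2 was lost without 1 of 7 (soft, low AHA replicate 3, soft, mid AHA replicate 2, soft, high AHA replicate 2, stiff, low AHA replicate 1, stiff, mid AHA replicate 2 or stiff, high AHA replicates 2 or 3), with adjusted p from 0.00891 to 0.14, and DESeq2 did not call it (0.0708). Exchanging the left-out library for the soft, high AHA replicate 2 also ended the calls of Pip5k1b (0.48, adjusted p = 0.139), Cd44 (-0.25, 0.0747) and Slc9a3r2 (-0.21, 0.0815).

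Of the genes of the caveola coat and neck, 11 of 13 were tested, 3 were lower on soft, 0 were higher and 8 were not called, with a median log2 difference of -0.074. Pacsin2, a membrane-bending protein of the caveolar neck, differed by -0.14 ± 0.036 (152 ± 10.0 against 168 ± 8.34 CPM, edgeR adjusted p = 0.00491). Ehd2, the ATPase that holds caveolae at the surface, differed by -0.34 ± 0.11 (adjusted p = 0.0322), and its relative Ehd4 by -0.15 ± 0.051 (0.0461). At low, mid and high AHA, Ehd2 differed by -0.34, -0.0021 and -0.66. At each AHA concentration taken alone, 0 of the 11 tested genes of this list were called. The Pacsin2 call was lost without the soft, high AHA replicate 3 (-0.097, adjusted p = 0.119, the highest of a range from 0.000181). That of Ehd2 was lost without 1 of 7 libraries (soft, low AHA replicates 1 or 3, soft, mid AHA replicate 1, soft, high AHA replicate 3, stiff, mid AHA replicates 1 or 2, or stiff, high AHA replicate 3), with adjusted p from 0.0138 to 0.166. That of Ehd4 was lost without any 1 of 12, which are all but soft, low AHA replicate 3, soft, mid AHA replicate 3, soft, high AHA replicate 2, stiff, low AHA replicate 1 and stiff, high AHA replicate 1, with adjusted p from 0.0205 to 0.161. DESeq2 called neither (0.0658 and 0.0768), and Ehd4 was also not called with all genes of at least 2 counts (-0.14, adjusted p = 0.0678) or with genes of every biotype (-0.15, 0.0535).

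Of the mechanosensitive channels, 14 of 16 were tested and 1 was called. Piezo2, the relative of Piezo1 best known from touch-sensing neurons, was lower on soft at 16.7 ± 2.16 against 21.7 ± 3.01 CPM (log2 difference -0.38 ± 0.096, edgeR adjusted p = 0.00251), but not past the threshold without the soft, high AHA replicate 2 (-0.30, 0.0510, the highest of a range from 0.000604). Piezo2 was called at 1 of the 3 AHA concentrations taken alone. The median of the list was -0.012. Of the genes of membrane curvature and tension, all 16 were tested, 3 were lower on soft, 1 was higher and 12 were not called, with a median of 0.020.

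In that last list, Bin1, a BAR-domain protein that bends membrane into tubules, had 44.6 ± 5.04 CPM on soft and 61.7 ± 6.67 CPM on stiff (log2 difference -0.46 ± 0.061, edgeR adjusted p = 1.69e-09). Anxa2, a calcium-dependent protein that binds the membrane and actin, differed by -0.28 ± 0.041 (99.3 ± 4.65 against 121 ± 7.01 CPM, adjusted p = 4.94e-08). Dysf, the membrane repair protein dysferlin, differed by -0.24 ± 0.066 (0.00716), a call lost without the soft, high AHA replicate 3 (-0.20, 0.0674, the highest of a range from 0.00285). Fnbp1, an F-BAR protein that links membrane curvature to actin assembly, was higher on soft by 0.16 ± 0.038 (0.00165). Of the 3 AHA concentrations taken alone, Bin1 was called at 2, Anxa2 at 1, and Dysf and Fnbp1 at 0. Of the 4 lists, that of the caveola coat and neck had the median farthest from the 0.0011 of all genes tested.

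**Figure D4:**
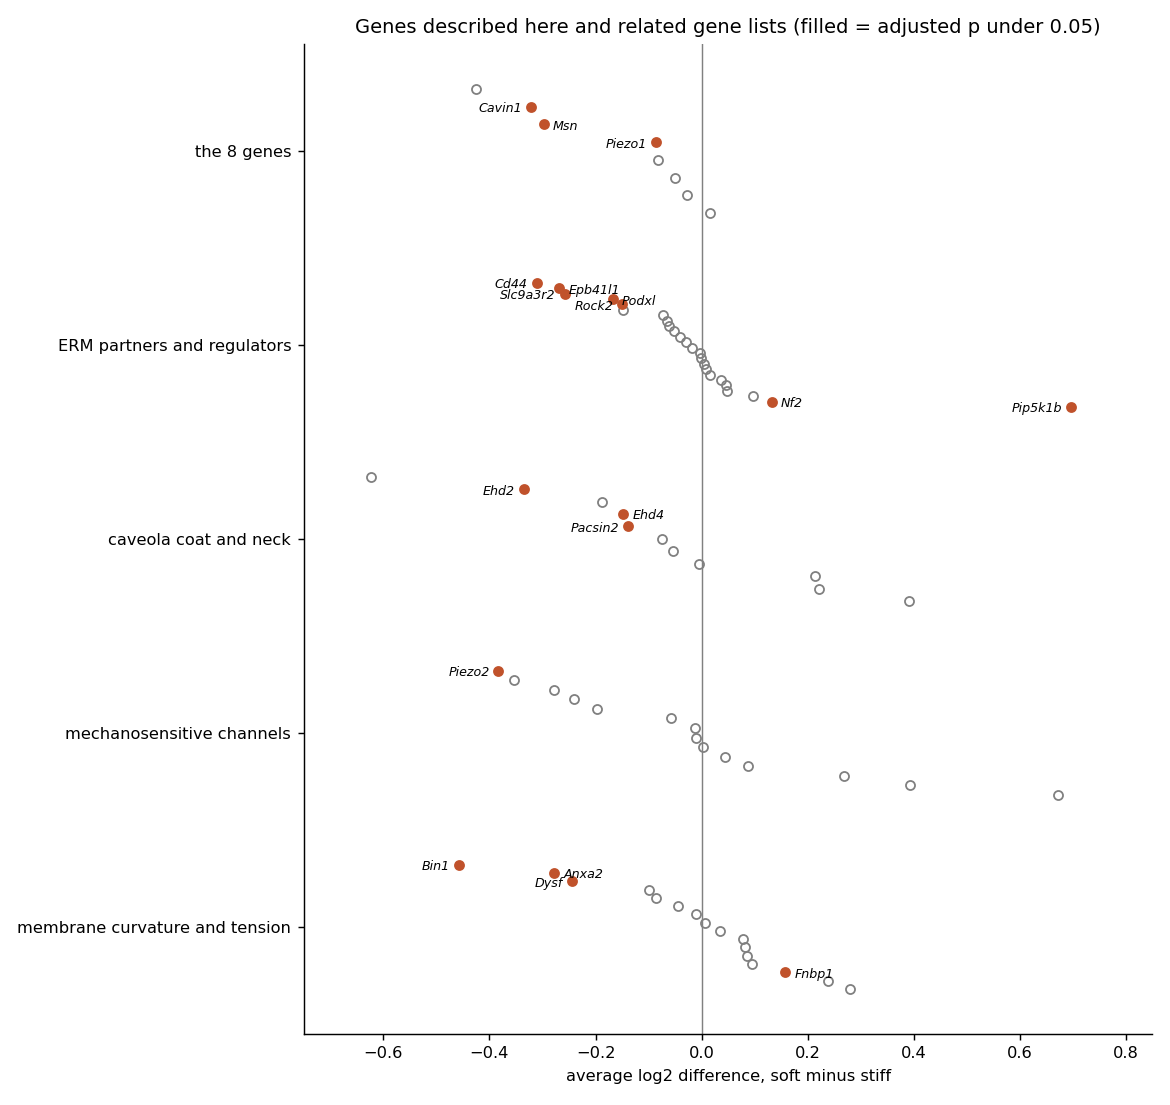
Average log2 difference, soft minus stiff (horizontal axis), of the 8 genes and of each tested gene of the 4 related lists (rows); filled points have an edgeR adjusted p under 0.05. Lower calls outnumber higher ones in each row (3 to 0, 5 to 2, 3 to 0, 1 to 0 and 3 to 1), as they do over all genes (4.82 to 3.77%).

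Markers of other cells were read beside these results. The summed level of the 8 fibroblast markers was 119 to 200 CPM on soft and 173 to 244 CPM on stiff, and most of it was Col1a1. Of the 6 tested markers 1 was called on average, Col1a1, which moved in the direction of Msn and Cavin1 (109 ± 24.6 against 155 ± 20.1 CPM, log2 difference -0.49 ± 0.085, edgeR adjusted p = 0.00282). The other tested markers had average log2 differences of -0.45 for Pdgfrb, -0.22 for Thy1, -0.13 for Col1a2, -0.0020 for Col3a1 and 0.54 for Postn. Of the 8 markers, Dcn and Lum were under 1 CPM and were not tested. At low AHA, Col1a1 was called lower on soft (-0.76 ± 0.14, edgeR adjusted p = 0.0117), with -0.39 for Col1a2, -0.31 for Col3a1, 0.14 for Thy1, 0.24 for Pdgfrb and 0.78 for Postn, none of them called. At mid AHA, Col1a1 was again called lower (-0.70 ± 0.14, 0.0206), with -0.24 for Col1a2, -0.14 for Col3a1, -0.68 for Thy1, -0.25 for Pdgfrb and -0.27 for Postn, none called. At high AHA, Pdgfrb was the 1 marker called (-1.35 ± 0.34, 0.0230), with -0.0089 for Col1a1, 0.24 for Col1a2, 0.44 for Col3a1, -0.13 for Thy1 and 1.09 for Postn. Msn and Cavin1 were called lower on soft at all 3 concentrations. The Msn call at high AHA and the Cavin1 call at mid AHA were each lost without single libraries. The embryonic stem cell markers moved against Msn and Cavin1, with a summed level of 1844 to 2024 CPM on soft and 1686 to 1822 CPM on stiff, 5 of 7 called higher on soft and 1 lower. Summed markers of primitive endoderm (36.8 to 51.2 CPM on soft, 37.3 to 49.3 CPM on stiff), trophoblast (176 to 201 and 170 to 193 CPM) and endothelium (139 to 161 and 131 to 152 CPM) overlapped between stiffnesses. Most of the trophoblast sum was Tfap2c (110 CPM) and most of the endothelium sum was Pecam1 (118 CPM), so each sum mainly gives the level of that gene. Within the trophoblast list 2 genes were called, Hand1 as lower on soft (-0.30 ± 0.068, edgeR adjusted p = 0.000841) and Tfap2c as higher (0.17 ± 0.043, 0.00235), and in the other 2 lists 0 were called. The part of any of these cells in the results was not tested.

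Across the 17 libraries, the 2 genes most like each of the 8 were taken by Pearson's r of log2 CPM, as a description only, since the libraries share 6 groups and a scaling. Msn was most like Itga3, an integrin subunit that binds laminin (r = 0.944), and Sema6a, a transmembrane semaphorin (0.943). Cavin1 was most like Slc2a1, the glucose transporter GLUT1 (0.941). Cav1 was most like Myh9, the heavy chain of non-muscle myosin IIA (0.870), and Scd2, a fatty acid desaturase (0.844).

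For Ezr the most alike were Eid2b (r = 0.817) and Dapk3 (0.814), for Rdx Col6a1 (0.886) and Sec62 (0.844), and for Slc9a3r1 C1qtnf6 (0.806) and Ptp4a1 (0.759). Piezo1 was most like Ptprf (0.811) and Slc7a7 (0.786), and Cav2 most like Cep63 (0.873) and Retreg3 (0.783). Among the 8 genes themselves the highest values were those of Msn with Cavin1 (0.797) and Cav1 with Cavin1 (0.739). The neighbours Cav1 and Cav2 had r = -0.134, on counts of at most 49 and 24 per library.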

How the data were processed

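RNA was sequenced from 18 libraries, 3 in each of 6 groups, grouped by the condition label and numbered in sample order. The labels name a pico-input mammalian kit on total RNA. Per the labels and the methods, the authors trimmed reads (Trim Galore 0.4.4), aligned them with GSNAP to GRCm38/mm10 and counted them on Ensembl release 81 genes with HTSeq, whose strand setting is not given in the sources used here. The deposited values are the raw counts of reads for each gene, not normalised. HTSeq summary lines, 61.5 to 64.0% of each column, and spike-ins entered neither library sizes nor tests.

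GENCODE M21 on GRCm38 named 45143 of the 46078 gene identifiers, 21519 of them protein-coding. Protein-coding genes were tested in R 4.3.3 with edgeR 4.0.16 (TMM, filterByExpr with a minimum count of 10, robust quasi-likelihood F test), in 1 fit with a coefficient for each group, and Benjamini-Hochberg adjusted over the 13438 genes tested (threshold 0.05). Libraries with an ERCC share over 1.5 times the median were left out, which leaves 17. The biological coefficient of variation was 5.35%. RPKM is CPM per kb of the union of exons, and ± is SD for levels and SE for log2 differences. Alternatives were DESeq2 1.42.0, RLE scaling, other filters, other lengths and other sets of libraries. The fit was tested on simulated data.

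The 8 genes, the lists and the tests were chosen with earlier results of these data known. Named beside the 8 are the called genes of each list, at most 6 a list by adjusted p, and the 2 genes most like each by Pearson's r (prior count 2, the same with 0.5). The second such gene for Cavin1 is not reported here.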

Additional observations from a re-analysis of the deposited data

Results flagged for a closer look

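Among 17 Dixon tests of single samples within the soft or the stiff libraries, 2 were past the critical value, where chance gives about 5% of tests. The soft, high AHA replicate 2 had the highest Cav2 level on soft, 3.83 CPM from 24 counts, apart from the other 7 soft libraries kept. The soft library left out of the fits held 3.65 CPM from 21 counts, so the level stands apart only with that library removed. The soft, high AHA replicate 1 held the highest ERCC share, 1.37%, and is the library left out of the fits.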

How the results depend on the processing

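Of 1876 values recomputed under the alternatives, 1764 kept their direction and side of the threshold or moved little, 58 lost a call, 6 gained one, 32 changed sign and 16 moved. The average differences of Msn (-0.32 to -0.29) and Cavin1 (-0.35 to -0.32) stayed called in 7 alternatives beside leaving out single libraries, which gave -0.31 to -0.28 and -0.33 to -0.30. With all 18 libraries, differences changed sign for Ezr (-0.024), Rdx (-0.034) and Cav1 (0.067) at high AHA and for Cavin1 between high and low AHA on soft (-0.010). Leaving out replicate 2 of the soft, high AHA group in place of replicate 1, chosen after seeing the data, gave -0.035, -0.074, 0.15 and -0.029 for the same results, and leaving out replicate 3 gave -0.057, -0.047, 0.098 and -0.048; none of these was called. The latter also called Ezr on average (-0.076, edgeR adjusted p = 0.0456, the lowest of a range to 0.395), so 4 of the 8 genes. At high AHA, Slc9a3r1 was also called, making 3 of the 8, with all genes of at least 2 counts and with replicate 2 left out in place of replicate 1. A fit of the 2 groups only called 1 of the 8 there, and Piezo1 was not called on average with all genes of at least 2 counts (adjusted p = 0.0567, the highest of a range from 0.00797). With the length of the longest coding transcript, mean RPKM was 90.8 for Rdx, 93.2 for Msn, 43.6 for Piezo1 and 2.55 for Cav1, and shares on soft and stiff were 44.5 and 42.5% for Ezr, 28.8 and 27.2% for Rdx, and 26.7 and 30.3% for Msn; a shorter length for the same counts gives a higher RPKM. Leaving out single libraries, the count of the 8 genes called ranged from 2 to 3 on average, 1 to 2 at mid AHA and 1 to 3 at high AHA. Signs changed in some of these fits for Cav2 on average (-0.12 to 0.12), for Slc9a3r1 at low (-0.056 to 0.025) and mid AHA (-0.060 to 0.083), for Ezr (-0.021 to 0.052), Rdx (-0.017 to 0.043), Cav1 (-0.11 to 0.036) and Cav2 (-0.19 to 0.53) at high AHA, and for Piezo1 between high and low AHA on soft (-0.081 to 0.020). Where a cause is not stated, the cause was not tested. Low counts limit Cav1 and Cav2. All 8 genes passed the filter, so the test planned for genes below it was not run, and DESeq2 gave no adjusted p for some Cav1, Cav2 and Pip5k1b contrasts. No paired analysis was possible because the labels give no replicate number shared between groups.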
